A study of Mus musculus with 5 samples.

Results

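The Hoxc cluster holds 9 homeobox genes, Hoxc4, Hoxc5, Hoxc6, Hoxc8, Hoxc9, Hoxc10, Hoxc11, Hoxc12 and Hoxc13, on mouse chromosome 15. Its histone marks were taken from the EpiSC9 line, which are mouse epiblast stem cells, the primed pluripotent cells of the implanted embryo. Every peak of 4 deposited peak lists in a window of 180 kb, chr15:102725000-102905000 on mm9, was included, which gave 108 of 156288 peaks. The cells grew in medium with 10 ng/ml FGF2 on irradiated mouse embryonic fibroblasts, and 5000000 crosslinked cells entered each chromatin immunoprecipitation. H3K27me3, H3K4me3, H3K4me1 and H3K27ac had 1 library each, in 1 condition and without replicates, so all values describe these libraries and no test between samples could be made. All 4 lists share the same line and culture, and the contribution of feeder chromatin was not tested.

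Hox genes encode transcription factors that give cells a position along the body axis, and they are switched on in the order in which they lie on the chromosome. Before that, Polycomb complexes keep the clusters silent: Polycomb repressive complex 2 places H3K27me3, which can spread over long stretches. In pluripotent cells many developmental promoters carry H3K4me3, the mark of promoters, together with H3K27me3, a state called bivalent. H3K4me1 marks enhancers and the flanks of promoters, and H3K27ac marks active promoters and enhancers.

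The RefSeq gene table, which is of build GRCm38.p6 and not mm9, matched all 9 members and was used for their order only. From the low to the high coordinate the order was Hoxc13, Hoxc12, Hoxc11, Hoxc10, Hoxc9, Hoxc8, Hoxc6, Hoxc5 and Hoxc4. Hoxc13, at the low end, acts in hair and nails, Hoxc10 and Hoxc11 act in the lumbar and sacral region and the hindlimb, Hoxc8 and Hoxc9 pattern the thoracic region, and Hoxc4 to Hoxc6 act at the neck and forelimb. The table lists 6 further RNA genes among or overlapping them. In that listing, Hotair, a long noncoding RNA, stands between Hoxc12 and Hoxc11. Mir196a-2 is listed between Hoxc10 and Hoxc9, and Mir615 between Hoxc5 and Hoxc4. An order alone does not show whether they overlap a neighbouring gene. No mm9 annotation was used here, so single peaks were not assigned to genes, and positions below are distances from the first H3K27me3 base of the domain, with the Hoxc13 end at 0 kb.

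Sequences are shown for what the marked region encodes besides protein. Of the 9 members, Hoxc4 had a promoter in the RefSeq promoter table, 250 bases before to 50 after the gene's start on the plus strand of GRCm38.p6, and CpG dinucleotides are in capitals because Polycomb complexes and H3K4me3 are known to gather at CpG-rich DNA.
Hoxc4 promoter: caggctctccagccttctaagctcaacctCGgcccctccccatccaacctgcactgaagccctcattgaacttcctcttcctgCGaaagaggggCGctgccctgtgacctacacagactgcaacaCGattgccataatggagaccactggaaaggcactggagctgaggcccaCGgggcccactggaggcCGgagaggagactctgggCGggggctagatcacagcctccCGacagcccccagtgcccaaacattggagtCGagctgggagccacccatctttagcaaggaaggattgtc
It holds 9 CpG and is 60.3% G and C, and its CpG count is 0.333 of that expected from its C and G content. Over the 32851 promoters of the same length in the table the median was 7 CpG (quartiles 3 and 20) and 52.7% G and C, and 56.5% of them had as many CpG as this promoter or fewer. It was thus not CpG-rich among them. Its position on mm9, and thus its overlap with the peaks, was not determined.

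The microRNAs of the cluster follow, from RefSeq (GRCm38.p6), with the seed, bases 2 to 8, in capitals.
mmu-miR-196a-5p: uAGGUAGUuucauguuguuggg
mmu-miR-196a-2-3p: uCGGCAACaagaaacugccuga
mmu-miR-615-5p: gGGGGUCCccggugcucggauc
mmu-miR-615-3p: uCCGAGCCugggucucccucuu
The 4 mature arms have 4 distinct seeds. miR-196 is known to pair with Hox messenger RNAs, among them Hoxb8.

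H3K27me3 covered 154 kb of the window, or 85.6%, in 52 peaks. These were 0.306% of the peaks of its list but 1.25% of the length the list covers. Joined within 5 kb, they formed 1 domain, chr15:102732520-102901305, that spanned 168.8 kb, began 7.52 kb inside the low edge of the window and ended 3.69 kb before the high edge. By covered length it ranked first of 7561 H3K27me3 domains of the list, 1.27 times the next. The cluster was taken up as the largest Polycomb domain, so this rank restates its choice. No peak of any mark crossed an edge of the window.

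The H3K27me3 peaks were unequal. Their median width was 1123.5 bp (quartiles 478.25 and 4280.25, range 218 to 15254), against a median of 405 bp over the whole list. The 12 peaks of 5 kb or more, of 194 such peaks in the list, made up 101.8 kb, or 66.1%, of the covered length. The scores, which are the authors' and are read here only within a list, had a median of 268.21 against 69.08 for the list, and 46 of the 52 were at or above that list median. Many scores in the list end at 3100, and that level was reached or passed by 7 peaks of the window and 68 of the list.

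The widest H3K27me3 peak, chr15:102757923-102773176, measured 15254 bp, scored 3100 and was the third widest of the 16975 in the list. Next came chr15:102830086-102844053 with 13968 bp and chr15:102848514-102862044 with 13531 bp, both also at 3100. The fourth, chr15:102886756-102895276, measured 8521 bp with a score of 2774.45, and the fifth, chr15:102797223-102805069, measured 7847 bp with 3195.57, the third highest score of the list. Together these 5 covered 59.12 kb. Of these, 4 lay between 25.4 and 129.5 kb from the low end, and the fourth widest lay apart from them near the Hoxc4 end, at 154.2 to 162.8 kb.

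**Figure D1:**
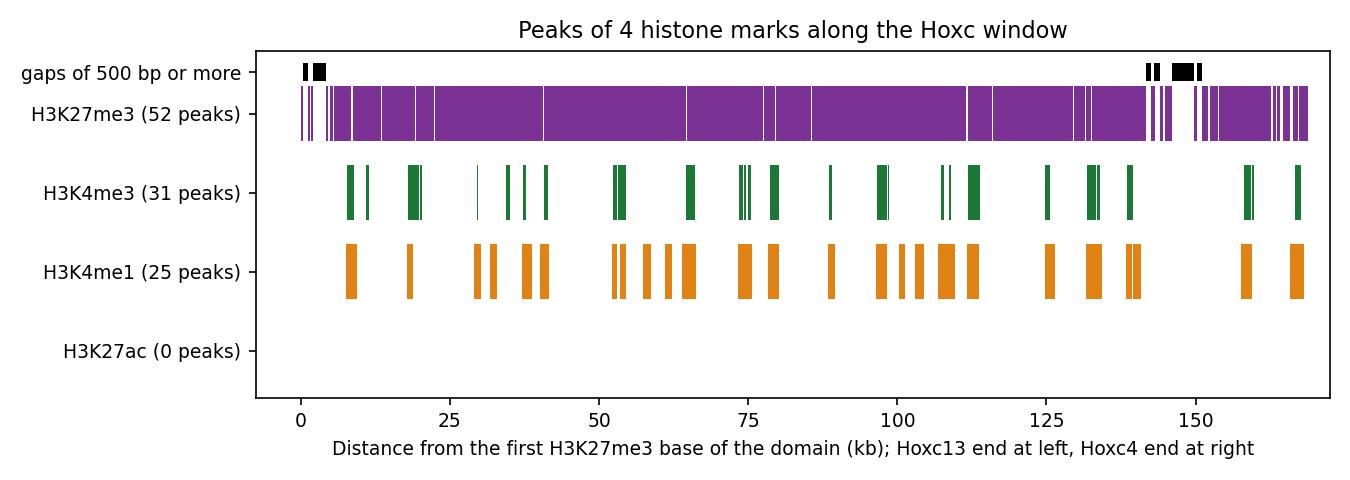
Peaks of the 4 marks (coloured bars) along the window, in kb from the first H3K27me3 base, with the gaps of 500 bp or more between H3K27me3 peaks in black on top. H3K27me3 is near continuous from 4.218 to 141.7 kb, the 6 long gaps lie at both sides of that stretch, and the H3K27ac row is empty.

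Along the cluster, H3K27me3 formed a long body with a thinner part toward the Hoxc4 end. From 4.218 to 141.7 kb, a stretch of 137.5 kb, no gap between neighbouring peaks exceeded 380 bp and 97.9% of the bases were covered. A further stretch of 17.68 kb, at 151.1 to 168.8 kb, was 87.9% covered. The pieces between and beside them were short, from 0.364 to 1.97 kb. Of 18 steps of 10 kb, 13 were covered to 95% or more, and 3 were covered to less than 50%. The last were the first step at the Hoxc13 end (11.4%), the step at 142.5 to 152.5 kb (37.8%) and the final step (48%), of which the first and the final one reach past the domain. In 3 equal parts of the window, from the Hoxc13 to the Hoxc4 end, H3K27me3 covered 80.2%, 98% and 78.4%. The first and the third part also reach past the domain, by 7.52 and 3.69 kb.

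**Figure D2:**
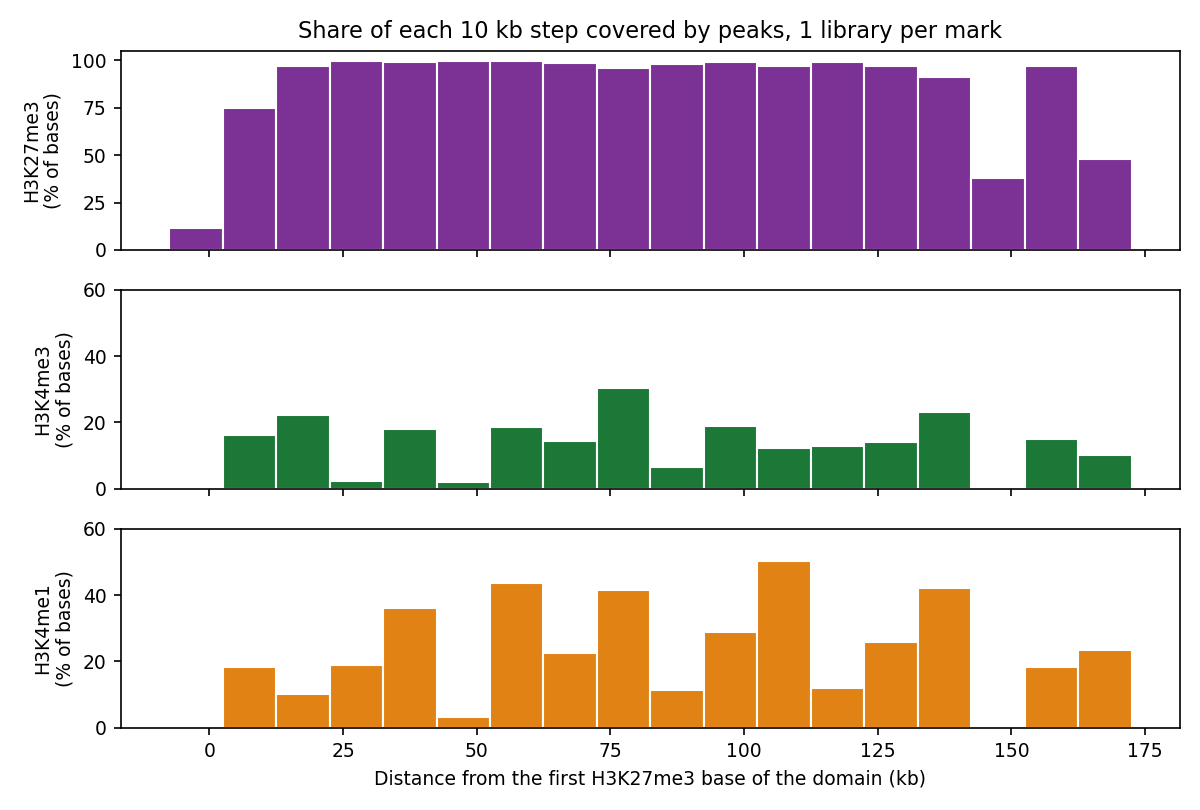
Share of the bases in each 10 kb step covered by peaks of H3K27me3, H3K4me3 and H3K4me1, against the distance from the first H3K27me3 base in kb; each bar is 1 step in 1 library. The step at 142.5 to 152.5 kb drops to 37.8% for H3K27me3 and holds neither H3K4me3 nor H3K4me1.

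The domain held 51 gaps between H3K27me3 peaks, 14.8 kb in all, or 8.76% of its span. Most were short, with a median of 85 bp, and the shortest measured 1 bp. Only 6 gaps reached 500 bp. Toward the Hoxc4 end, 4 of these followed each other: 782 bp at chr15:102874198-102874979, 954 bp at chr15:102875657-102876610, 3699 bp at chr15:102878581-102882279 and 942 bp at chr15:102882683-102883624. The other 2 lay in the first 4.218 kb at the Hoxc13 end and measured 765 bp, at chr15:102732884-102733648, and 2108 bp, at chr15:102734630-102736737. The 137.5 kb stretch between these places holds no long gap by its definition, since it was taken as the longest run of peaks with no gap of 500 bp or more.

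None of the 6 long gaps held H3K4me3 (0%, 95% Wilson interval 0 to 39), and by the rule of 3 counts 6 gaps allow a share of up to 50%. The nearest H3K4me3 peak was between 2187 and 7027 bp away. In the other 214 H3K27me3 domains that covered 10 kb or more, 249 of 574 gaps of 500 bp or more overlapped H3K4me3 (43.4%). That share is above the Wilson interval and below the limit of 3 counts, neighbouring gaps are not independent, and the difference was not tested. Counted by domain, the others held a median of 1 long gap with H3K4me3 (quartiles 0 and 2), and the Hoxc domain ranked 138th of 215. A count of 0 was thus not particular to it, though domains without any long gap also count as 0. The long gaps of the Hoxc domain also held 0 H3K4me1 peaks.

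H3K4me3 was found in part of the short gaps. Of the 45 gaps under 500 bp, 9 overlapped H3K4me3 (20%), against 38.1% of 1557 such gaps in the other long domains. H3K4me3 lay over 21.4% of the bases in these short gaps and over 14.6% of the bases under H3K27me3. In the other long domains the corresponding shares were 35.9% and 30.3%. Within the 137.5 kb stretch, the 31 gaps came to 2.9 kb, and H3K4me3 lay over 33.9% of it. That share rests on 8 gaps, of which the longest, 380 bp at chr15:102740957-102741336 and 291 bp at chr15:102811945-102812235, were wholly under H3K4me3. The 9 short gaps with H3K4me3 in the domain measured 7 to 380 bp. Whether gaps so short are a lack of H3K27me3 or only breaks between called peaks was not tested.

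**Figure D3:**
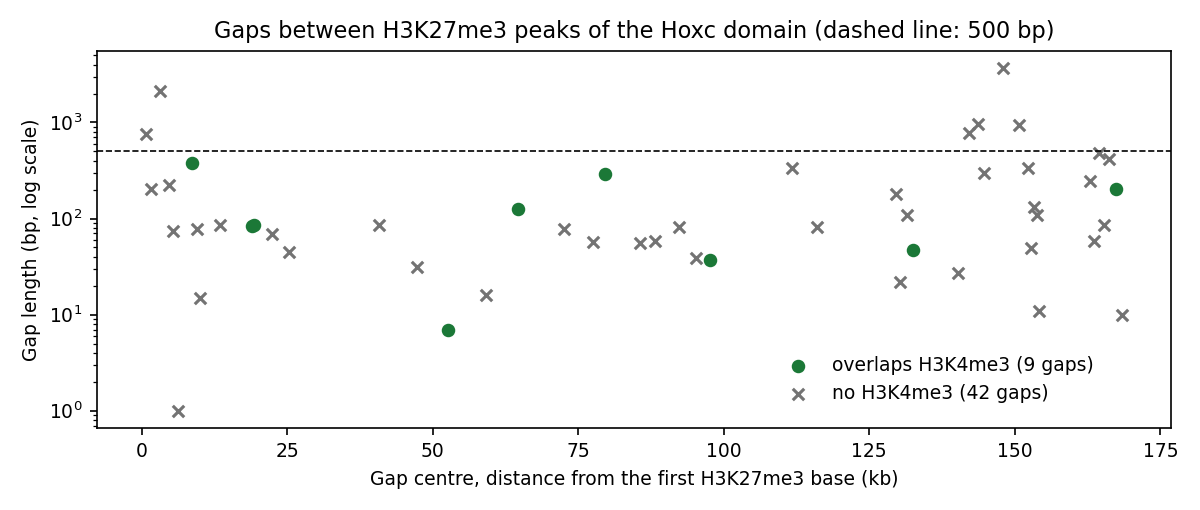
Each of the 51 gaps between H3K27me3 peaks by its length (log scale, bp) and its centre (kb from the first H3K27me3 base); green circles overlap H3K4me3 and grey crosses do not. The 9 gaps with H3K4me3 are all below the dashed line at 500 bp, and the longest gap, 3699 bp, has none.

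H3K4me3 formed peaks in 16 of the 18 steps of 10 kb, and most were narrow and weak beside its whole list. The window held 31 of them, 23.75 kb in all, or 13.2% of the window. Their median width was 598 bp (range 233 to 1893) against 981 bp over the list, and their median score was 180.5 against 888.39, so that 3 of 31 reached the list median and 0 reached 3100. H3K4me3 peaks in the other 214 long H3K27me3 domains stood between, with a median of 773 bp (quartiles 412 and 1349.5) and a score of 317.5 (quartiles 103.89 and 859.17) over 1551 peaks.

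The 5 highest scoring H3K4me3 peaks were also the 5 widest. The highest score, 1539.3, belonged to chr15:102864348-102865862 (1515 bp), at 131.8 kb. Scores of 1155.81 and 1123.53 belonged to chr15:102811206-102812735 (1530 bp), at 78.69 kb, and chr15:102829106-102830742 (1637 bp), at 96.59 kb. The widest, chr15:102844400-102846292 with 1893 bp, scored 823.22 and lay at 111.9 kb, and chr15:102750561-102752407 with 1847 bp scored 663.38 and lay at 18.04 kb, nearest to the Hoxc13 end. All 5 lay inside the 137.5 kb stretch of H3K27me3, as did 27 of all 31 H3K4me3 peaks, and 4 of the 5 lay between 78.69 and 133.3 kb. That stretch is most of the 168.8 kb span, so most peaks would lie in it by length alone, and no test was made. These 5 held 35.5% of the H3K4me3 bases.

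**Figure D4:**
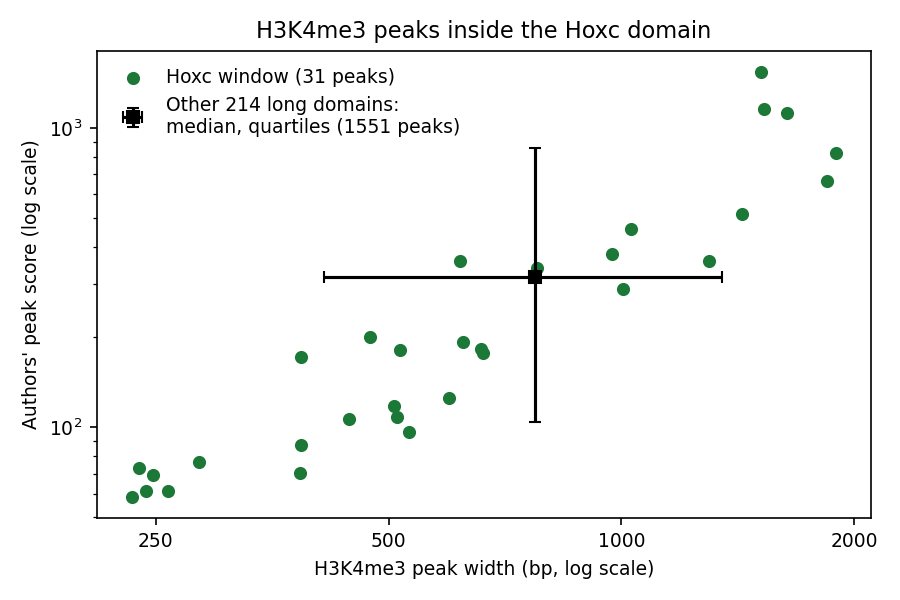
Width (bp) and authors' score of the 31 H3K4me3 peaks of the window (green), both on log scales, with the median and quartiles of 1551 H3K4me3 peaks in the other 214 long H3K27me3 domains (black). The 5 peaks of 1515 bp or more carry the 5 highest scores, from 663.38 to 1539.3.

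Every H3K4me3 peak of the window met H3K27me3: 31 of 31 (100%, 95% Wilson interval 89 to 100), beside 16.6% over the whole list. The window was covered so widely that a peak placed anywhere in the domain would usually meet H3K27me3, and this share was not tested. Of the 31 peaks, 23 lay wholly on H3K27me3 and 8 partly. By length, 95% of the H3K4me3 bases were under H3K27me3 and 1.19 kb was not. The peak with the least was chr15:102740945-102741417, at 8.425 kb, with 19.7% of its length on H3K27me3. Of the 5 highest scoring peaks 4 spanned or met gaps between H3K27me3 peaks, which measured 37 to 291 bp. The fifth, chr15:102844400-102846292, began 14 bp past a gap of 332 bp. Of the other 26 peaks 4 met a gap. Wider peaks meet more gaps, and no test was made.

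Joined within 1 kb, the H3K4me3 peaks gave 20 sites, of which 11 were single peaks. The distance between neighbouring sites had a median of 6.89 kb and ranged from 2 to 18.6 kb. Apart from this widest interval, 3 intervals exceeded 10 kb, at 41.4 to 52.28 kb, 54.49 to 64.65 kb and 113.8 to 124.8 kb, and H3K27me3 covered 99.7%, 99.1% and 99.3% of them. The widest interval, at 139.5 to 158.1 kb, differed: H3K27me3 covered 60.7% of it, the lowest of the 19 intervals, and it held the 4 long gaps at the Hoxc4 end. Most intervals without H3K4me3 were filled with H3K27me3, which covered 95% or more of 16 of the 19. The second lowest cover, 81.2%, was in the interval that followed.

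The window held 25 H3K4me1 peaks, 40.68 kb in all, or 22.6% of the window, with a median width of 1513 bp against 1541 bp over the list and a median score of 98.63 against 128.18. H3K4me3 lay on 19 of the 25 (76%, interval 56.6 to 88.5), beside 31.4% of the list, and 27 of 31 H3K4me3 peaks met H3K4me1 (87.1%, 71.1 to 94.9), beside 83.2%, a share inside that interval. Of the 20 H3K4me3 sites 18 held H3K4me1. All 25 H3K4me1 peaks met H3K27me3 (100%, 86.7 to 100), beside 6.21% of the list, and 15 lay wholly on it. As for H3K4me3, almost any peak placed in the domain would meet H3K27me3 by 1 bp, because H3K27me3 covers 91.2% of the span. This share was therefore nearly fixed in advance, and it was not tested.

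The 3 widest H3K4me1 peaks all held H3K4me3. They were chr15:102839373-102842092 (2720 bp, score 282.37), chr15:102864154-102866805 (2652 bp, score 238.57) and chr15:102898277-102900626 (2350 bp, score 145.5). The first, at 106.9 kb, held 2 small H3K4me3 peaks of 385 and 248 bp, over 23.3% of its length, and the second surrounded the highest scoring H3K4me3 peak. The third lay at the Hoxc4 end of the domain, where 73.4% of it was on H3K27me3. The 6 H3K4me1 peaks without H3K4me3 were weaker, with a median score of 66.34 (51.15 to 92.67) against 123.8 (50.84 to 282.37) for the other 19. They lay between 31.76 and 140.8 kb, inside the 137.5 kb stretch that held 23 of all 25 H3K4me1 peaks and is most of the 168.8 kb span. In the same 3 parts of the window H3K4me1 covered 14.5%, 33.1% and 20.2%, and H3K4me3 covered 10.1%, 16.9% and 12.6%. All 3 marks thus had their highest cover in the middle part, the only one that lies wholly inside the domain.

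Seen from H3K27me3, 24 of the 52 peaks met H3K4me3 (46.2%, 33.3 to 59.5), beside 33.2% of the list. These 24 had a median width of 4481.5 bp and held 126.1 kb, while the 28 without H3K4me3 had a median of 560.5 bp and held 27.87 kb. Width and overlap are not independent here either. The widest H3K27me3 peak without H3K4me3 was chr15:102791718-102797095, with 5378 bp and a score of 3008.05.

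The window held 0 H3K27ac peaks. None of the 31 H3K4me3 peaks met H3K27ac, beside 49.2% of the list, and 31 peaks allow a share of up to 9.68%. None of the 25 H3K4me1 peaks met it either, beside 30.9% of the list and with a limit of 12%. For the 52 H3K27me3 peaks the count was also 0, but their limit of 5.77% is above the list share of 1.27%. That count therefore shows no difference from the list. All these counts restate the lack of H3K27ac peaks in the window. Long H3K27me3 domains mostly lacked H3K27ac: 198 of the other 214 that covered 10 kb or more also held 0 peaks of it. Of the 4 domains next in covered length, those on chromosomes 2 and 9 held 0 and those on chromosomes 6 and 11 held 8 and 10. A list of peaks shows what passed the authors' threshold, so acetylation below it would not appear. The nearest H3K27ac peak toward the Hoxc4 side, chr15:102964481-102965108, lay 63.2 kb past the domain with a score of 55.33, and on the Hoxc13 side, chr15:102500318-102506029 lay 226 kb away with a score of 3100.

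The surroundings of the domain were unlike at its ends. In the 50 kb before the Hoxc13 end there were 0 peaks of H3K27me3, H3K4me3 or H3K27ac and 1 of H3K4me1, chr15:102692095-102693516, at 39 kb. The nearest H3K27me3 peak on that side, chr15:102601987-102602359, was 130 kb away and the nearest H3K4me3 peak, chr15:102583445-102583749, 149 kb. In the 50 kb after the Hoxc4 end there were 5 H3K27me3, 2 H3K4me3 and 6 H3K4me1 peaks. The nearest of each coincided: H3K27me3 at chr15:102914376-102918375 (4000 bp, score 1052.8, 13.1 kb away), H3K4me3 at chr15:102916179-102917368 (1190 bp, score 850.7) and H3K4me1 at chr15:102915869-102917881 (2013 bp, score 195.26). That H3K4me3 score was above those of 28 of the 31 peaks in the window.

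The domains next in covered length lay on chromosomes 6, 11, 2 and 9, and RefSeq places the Hoxa, Hoxb and Hoxd genes on chromosomes 6, 11 and 2. H3K4me3 was sparser in the Hoxc domain than in these 4. It had 1.84 H3K4me3 peaks per 10 kb of span, against 3.18, 2.63, 3.5 and 1.99 in that order of chromosomes, and H3K4me3 covered 14.1% of its span against 28.1%, 24.3%, 22.4% and 15%. The share of H3K4me3 bases on H3K27me3 was 95%, against 82.5%, 81.2%, 82.5% and 84.7%. H3K4me1 covered 24.1% of the Hoxc span and 50.2%, 45.1%, 40.2% and 22.8% of the others. Median H3K4me3 widths were closer, at 598 bp against 513, 578, 512 and 812 bp. So were the median H3K4me3 scores, at 180.5 against 197.35, 181.48, 143.58 and 238.55. The highest H3K4me3 score was 1539.3, against 3100, 2815.97, 1001.93 and 956.02. Long gaps in H3K27me3 met H3K4me3 in 0 of 6 cases in the Hoxc domain, 6 of 6 on chromosome 6, 6 of 13 on chromosome 11, 4 of 5 on chromosome 2 and 3 of 8 on chromosome 9. With 1 domain of each kind in 1 library, these differences have no replicate error and were not tested.

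**Figure D5:**
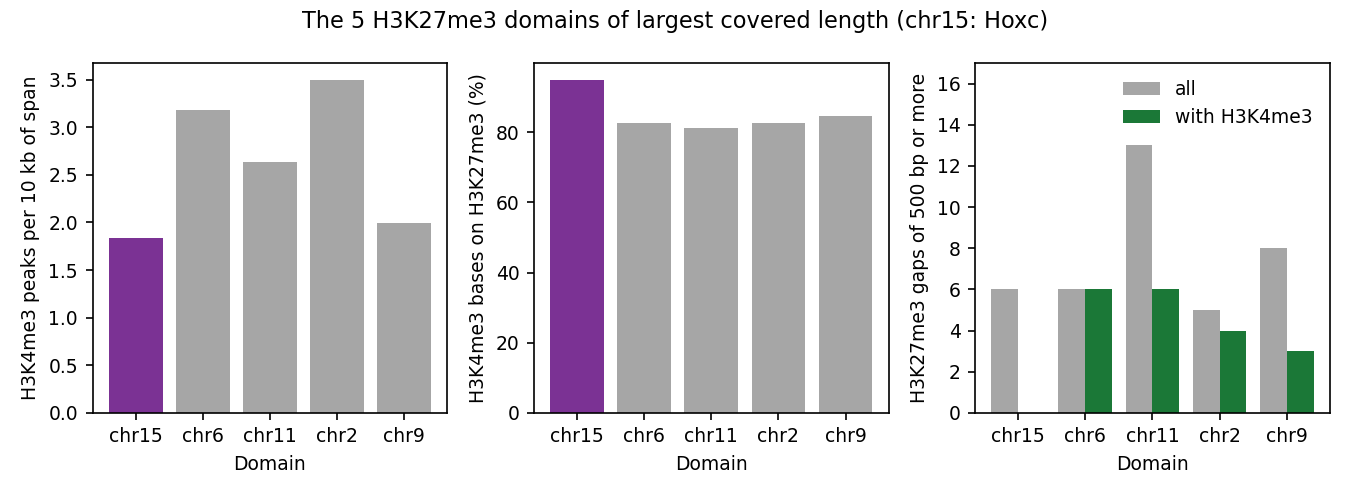
The 5 H3K27me3 domains of largest covered length, by H3K4me3 peaks per 10 kb of span (left), the percentage of H3K4me3 bases on H3K27me3 (middle) and the number of H3K27me3 gaps of 500 bp or more, all and with H3K4me3 (right); chr15 is the Hoxc domain, and each bar is 1 domain in 1 library. The Hoxc domain has the fewest H3K4me3 peaks per 10 kb, 1.84, and the highest share on H3K27me3, 95%.

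Among all 215 domains that covered 10 kb or more, the Hoxc domain ranked 189th for H3K4me3 peaks per 10 kb (median of the others 2.955, quartiles 2.32 and 4.047) and 199th for the share of its span under H3K4me3 (median 32.85%). For the share under H3K4me1 it ranked 202nd, with a median of 53.6% among the others. It ranked 58th for the share of its span covered by H3K27me3, 91.2% against a median of 83.95%, and 33rd for the share of H3K4me3 bases on H3K27me3 (median 84.25%). The Hoxc domain was thus first in length and inside the full range of the others in each of these 5 shares and densities. It lay below their lower quartile for H3K4me3 peaks per 10 kb (2.32) and for the span under H3K4me3 (23.92%) and H3K4me1 (40.92%). Its share of H3K4me3 bases on H3K27me3 was above their upper quartile (92.1%), and its H3K27me3 cover was just below theirs (91.4%). The others spanned a median of 20.05 kb against 168.8 kb here, so these ranks set regions of unlike length side by side.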

How the data were processed

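Chromatin immunoprecipitation with sequencing was deposited as 1 list of peak intervals on mm9 for each of 4 marks, and each peak has a score, as deposited by the authors, whose definition no header or label gives. Bowtie 0.12.9, MACS 1.4 and Cufflinks are named in the submitters' processing notes, with no role or order. Which control and threshold were used, and how duplicates were treated, is not given in the sources used here. The input library was not analysed here. The lists hold no read numbers and the depth of the libraries is unknown, and depth and antibody quality both affect how many peaks are called, how wide they are and where gaps appear.

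Peaks of the window were compared by position, with an overlap of at least 1 bp. Groups follow the antibody in the labels. H3K27me3 peaks were joined within 5 kb into domains, and gaps are the uncovered stretches between neighbouring H3K27me3 peaks. Wilson intervals (95%) and limits for a count of 0 (3 counts) cover counting over peaks only, and neighbouring peaks are not independent. Coordinates are 1-based. Peaks named are the 5 widest of H3K27me3, the 5 widest and highest scoring of H3K4me3, the 3 widest of H3K4me1, gaps of 1 kb or more, and the nearest peaks outside; other gaps and peaks were named after their values were seen, as were the longest stretch, the H3K4me3 sites and the comparison of short gaps. The window, members and measures were chosen with earlier results of these data known. Alternatives were other score filters, overlaps, gap lengths, regions and joining distances. The interval functions were written in Python 3.11.15 (numpy 2.4.6), with intervals from scipy 1.17.1 and plots from matplotlib 3.10.9, and were tested on simulated data.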

Additional observations from a re-analysis of the deposited data

How the results depend on the processing

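Of 43 values under other settings, 27 stayed within the limit set for their kind, which was the 95% binomial interval for shares (over peaks, gaps or, for the covered share, bases) and 1.5 times for counts, ranks, lengths and the share of gap bases. Among them were first rank by covered length and 0 H3K27ac peaks. Also among them, under the score filters, were 0 long gaps with H3K4me3 and 100% of H3K4me3 and H3K4me1 peaks on H3K27me3. Except for the H3K27ac count, these unchanged values add little. The cluster was taken up as the largest domain, score filters take H3K4me3 peaks away, and H3K27me3 covers most of the domain. H3K27me3 covered 84.3% of the window with peaks at or above the list median score, 82.2% with scores of 100 or more, and 91.2% of the domain's span. Merging peaks less than 200 bp apart left 18 H3K27me3 peaks. Gaps numbered 17 at 200 bp or more, 2 at 1 kb or more and 51 at 1 bp or more, and 17.6% held H3K4me3 at a minimum of 200 bp. With peaks at or above their list's median score, 3 H3K4me3 and 8 H3K4me1 peaks remained, and 25% of the latter lay on H3K4me3; with scores of 100 or more, 12 H3K4me1 peaks remained and 100% did. H3K4me3 covered at least 50% of the peak for 52% of H3K4me1 peaks. Chosen after the data were seen, the longest stretch of H3K27me3 measured 70.6 kb when broken at gaps of 200 bp, and the share of its gaps under H3K4me3 was 12% at or above the median scores and 19.9% when broken at 1 kb. Counts of peaks fall under a stricter score filter by definition. The share of H3K4me1 peaks on H3K4me3 moved from 76% in both directions, so it depends on the filter. The 6 H3K4me1 peaks without H3K4me3 scored 51.15 to 92.67, so a filter at 100 removes all of them. A filter at the list medians leaves only 3 H3K4me3 peaks for the 8 H3K4me1 peaks to meet. No paired analysis was possible because each mark had 1 library.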
